A study of Sus scrofa with 297 samples.

Results

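Toll-like receptors (TLRs) are membrane receptors of innate immunity, and MYD88 is the adaptor protein that most of them share. The genes described are TLR1, TLR2, TLR3, TLR4, TLR5, TLR6, TLR9, TLR10 and MYD88, and their members are all probe sets to which the array annotation gives 1 of these symbols and no other. The annotation named 28 such probe sets for the 9 genes, of 47722 probe sets and 13755 genes with a symbol. Of the 28 probe sets, 21 passed the filter on low signal and 7 did not. The 21 stand for 7 genes, because TLR1 and TLR10 had only 1 probe set each and both were under the filter, as were 2 probe sets of TLR2 and 3 of TLR4.

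Livers of adult German Landrace pigs were taken at slaughter, 1 Affymetrix Snowball array was hybridised per animal, and all animals form 1 group with no treatment. The area of the loin eye (LEA), the area of fat (FA) and their ratio (MFR) were labelled for all but 8 of the pigs. By the first 2 digits of its number each pig belongs to 1 of 9 number series, of 9 to 94 pigs, and the labels do not say what a series marks. Sex was not given in the labels, and no animal was assigned one.

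Each TLR recognises its own kind of microbial or viral molecule. TLR2 pairs with TLR1 or TLR6 and binds bacterial lipoproteins, TLR4 senses endotoxin with LBP, CD14 and LY96, and TLR5 senses flagellin. TLR3 and TLR9 lie in endosomes, where TLR3 binds double-stranded RNA and signals through TICAM1, and TLR9 binds unmethylated CpG DNA and signals through MYD88. MYD88 recruits IRAK kinases, which lead to NF-kB and to cytokine genes such as TNF and CXCL8. In liver, Kupffer cells, endothelial cells and hepatocytes meet bacterial products from the portal blood.

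Signals are log2 values, so that 1 unit is a doubling of fluorescence. Probe sets bind with different strength, and no level was compared between genes. Arrays correlated with each other at a Pearson's r of 0.914 to 0.991. The filter kept the 52.2% of probe sets that were highest in their 20th percentile of signal, called transcripts below, and the lowest such percentile among them was 5.32. Probe sets go by their identifiers on the array. The 6 hepatocyte markers ALB, APOA1, TF, TTR, SERPINA1 and HP had median signals of 10.82 to 13.95 and in no liver was 1 of them under 10.20. The first principal component took 27.8% of the variance of the tested transcripts, and a transcript's median absolute Spearman's rho with it was 0.44. Whole liver was measured, so that fewer cells of a type and less RNA per cell cannot be told apart.

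TLR2, the common partner of the lipoprotein receptors, varied widely between pigs. Probe set SNOWBALL_011425, with the highest mean of the gene, had a lowest signal of 6.59, a median of 7.73 and a highest of 9.51, a 7.57-fold range. Probe set SNOWBALL_001527 ran between 6.30 and 9.24 with a median of 7.44. The third tested probe set, SNOWBALL_001528, ran between 4.96 and 8.75 with a median of 6.78, which is a 13.8-fold range. The 3 probe sets ranked the livers alike, with rho of 0.80 to 0.94. A few livers lay well above the rest, and for probe set SNOWBALL_011425 9 livers were over 2 SD above the mean and 5 over 2 SD below it.

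TLR6, which shares ligands with TLR2, had signals of 4.61 to 7.14 with a median of 6.02. TLR1, the other partner of TLR2, had a lowest signal of 3.41, a median of 4.25 and a highest of 5.32 in its only probe set. TLR10, a receptor of the same subfamily, ran from 3.92 to 5.31 with a median of 4.51. In the pig genome annotation (Sscrofa11.1) TLR10, TLR1 and TLR6 lie next to each other between KLF3 and FAM114A1. The proteins of this subfamily are close relatives, and whether the probes of 1 gene also bind its neighbours was not tested. Detection calls were not used here, and the 69 background control probe sets of the array averaged 1.52 to 9.00, with a median of 4.08, so that the low signals of TLR1 and TLR10 are not read as absence or as expression.

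TLR4, the endotoxin receptor, had 6 tested probe sets that did not all follow each other. Probe set SNOWBALL_000104, with the highest mean, ran from 6.20 to 8.96 with a median of 7.65. The 6 probe sets correlated with each other at 0.19 to 0.81 by Spearman's coefficient. Probe sets SNOWBALL_000105 and SNOWBALL_022981 stood apart from the others. TLR5, the flagellin receptor, was measured by 2 probe sets that followed each other at a rho of 0.93. Probe set SNOWBALL_013366 ran from 8.29 to 10.26 with a median of 9.53, and SNOWBALL_022949 from 7.80 to 9.76 with a median of 9.02.

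TLR3, the receptor for double-stranded RNA, had the largest SD among the TLR probe sets. Probe set SNOWBALL_017798 had a lowest signal of 8.95, a median of 10.97 and a highest of 12.54, a 12-fold range, and 96.3% of the tested transcripts had a smaller SD. Its SD was 0.60, against a median of 0.27 over all tested transcripts. The other 4 probe sets of TLR3 had medians of 6.39 to 8.97, and rho between the 5 was 0.51 to 0.90. TLR9, the receptor for CpG DNA, varied least, with a lowest signal of 6.08, a median of 6.59 and a highest of 6.95 in probe set SNOWBALL_000242. Only 1.1% of the tested transcripts had a smaller SD than this probe set. Its second probe set, SNOWBALL_015369, ran from 4.83 to 6.65, and both probe sets of TLR9 had a rho of 0.29 with each other.

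MYD88 had 2 probe sets of like median and unlike spread. Probe set SNOWBALL_000225 ran from 7.40 to 9.18 with a median of 8.10. Probe set SNOWBALL_000226 ran from 4.29 to 9.31 with a median of 8.16, a 32.4-fold range. In 14 livers probe set SNOWBALL_000226 lay over 2 SD below its mean and in 0 livers over 2 SD above it. The rho between both probe sets was 0.43, and SNOWBALL_000225 is the probe set used for MYD88 below.

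**Figure D1:**
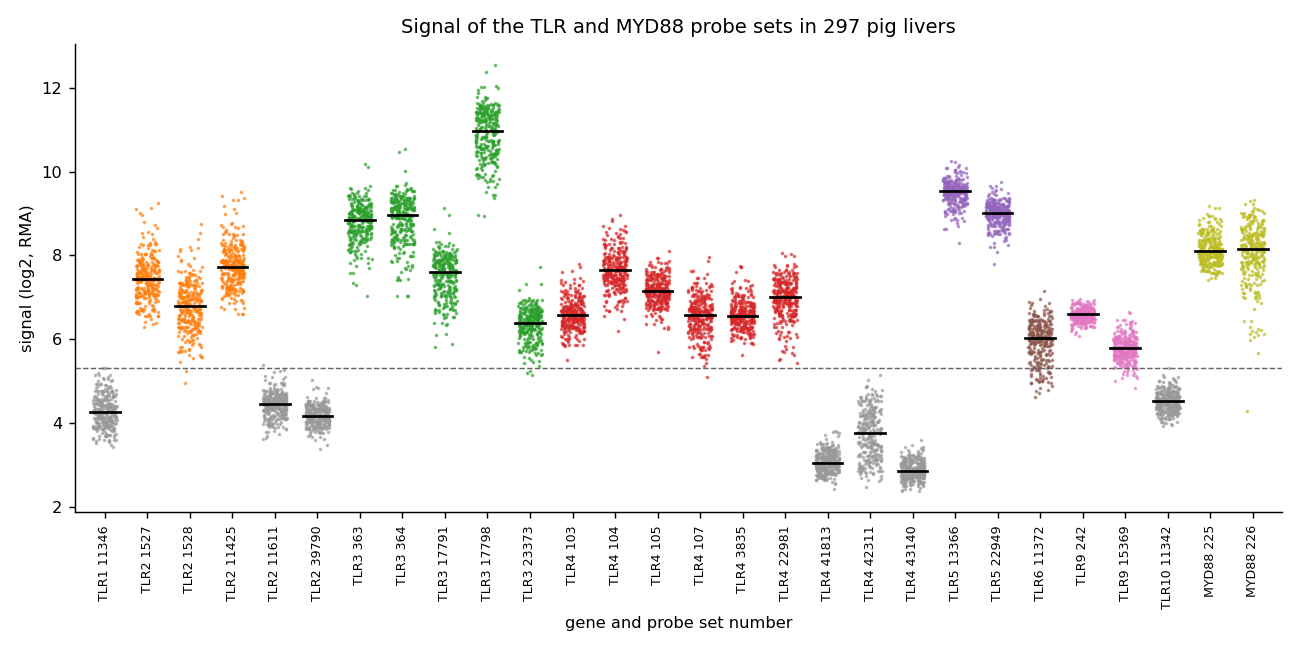
Signal (log2, RMA) of the 28 probe sets in all livers, 1 point per liver and a black bar at the median, with each probe set under the number in its identifier; the dashed line is at 5.32, and the 7 probe sets left out by the filter are grey. TLR3 SNOWBALL_017798 spans 8.95 to 12.54, TLR9 SNOWBALL_000242 spans 6.08 to 6.95, and MYD88 SNOWBALL_000226 has a tail of low livers down to 4.29.

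TLR3 was the gene among them most tied to the number series. The series accounted for 57.7% of the rank variance of probe set SNOWBALL_017798, while the median transcript had 14.5%, and 99 transcripts had a share at least as high. Its median signal was 11.24 to 11.53 in series 21 to 25 and 10.44 to 10.59 in series 26 to 29, with ranges that overlapped. For the other 4 probe sets of TLR3 the share was 17.8% to 35.5%. Probe set SNOWBALL_000363 did not show the same step, since its highest series median, 9.12, was that of series 28. TLR6 followed with 27%, and the probe sets of highest mean of TLR2, TLR4, TLR5, TLR9 and MYD88 had 8.2% to 14.3%. Because of this, the main correlations below are given also from ranks centred within the series.

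The next question was which receptors went up and down together over the livers. A pair was called when Spearman's rho passed an FDR of 1% over all tested transcripts for both genes, and 17 of the 21 pairs of the 7 genes were called. This count is read against the share of all transcripts called with each gene, since much of the liver transcriptome moved together. TLR2 was correlated with 27.7% of the transcripts (12.8% positive, 14.9% negative), TLR4 with 48.5% (18.8% and 29.7%) and TLR5 with 46.0% (19.9% and 26.1%). MYD88 was correlated with 51.4% (32.6% positive, 18.7% negative). TLR3, TLR6 and TLR9 were correlated with most transcripts, at 77.8% (23.8% positive, 54% negative), 82.8% (27.1% and 55.7%) and 78.2% (51.1% and 27%). A called pair with TLR3, TLR6 or TLR9 is therefore close to the background. Probe sets SNOWBALL_000105 and SNOWBALL_022981 of TLR4 were correlated with 7.97% and 1.57% of the transcripts.

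TLR2, TLR4 and MYD88 were higher in the same livers. TLR2 and TLR4 had a rho of 0.404 (FDR = 8.3e-11) and a Pearson's r of 0.451, and the permutation p was 1e-05 for both, which is the lowest value 100000 permutations allow. Without the 2 livers farthest from the median r was 0.425, and within the number series rho was 0.389, positive in 8 of 9 series. All 18 combinations of their tested probe sets had a positive rho, from 0.16 to 0.51. TLR2 and MYD88 had a rho of 0.426 (FDR = 2.6e-12) and an r of 0.474, both with a permutation p of 1e-05. Their r was 0.449 without the 2 farthest livers, and rho was 0.409 within series, positive in 8 of 9. All 6 combinations of their probe sets were positive, from 0.13 to 0.46. Those with MYD88 SNOWBALL_000226 had 0.13 to 0.15, under 0.157, the smallest |rho| called with that probe set. TLR4 and MYD88 were tied more loosely, with a rho of 0.249 (permutation p = 4e-05, FDR = 7.6e-05), an r of 0.270 (permutation p = 1e-05), 0.284 without the 2 farthest, and a rho of 0.258 within series, positive in 6 of 9. Of the 12 combinations of TLR4 and MYD88 probe sets 10 were positive and 2 negative.

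TLR5 went the opposite way to TLR2 and MYD88. TLR2 and TLR5 had a rho of -0.302 (FDR = 2.5e-06) and an r of -0.383 (permutation p = 1e-05 for both), and r was -0.345 without the 2 farthest livers. Within series rho was -0.291, and it was negative in 9 of 9 series and in all 6 combinations of probe sets. TLR5 and MYD88 had a rho of -0.310 (FDR = 7.3e-07) and an r of -0.382, with the same permutation p, and -0.350 without the 2 farthest. Within series their rho was -0.285, negative in 8 of 9. In the livers with numbers from 2800 on it was -0.516, and in those below 2800 it was -0.084 and was not called. The difference between both sets of numbers was not tested, for this pair or for the values given below. TLR4 and TLR5 had a rho of -0.101 that did not pass (FDR = 0.12), and Pearson's r of -0.178 did (FDR = 0.0052).

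TLR3 and TLR6 had the highest rho of the 21 pairs, 0.629 (FDR = 1e-32), with an r of 0.670 and a permutation p of 1e-05 for both. It was 0.500 within series, positive in 7 of 9, and r was 0.672 without the 2 farthest livers. All 5 combinations of probe sets gave 0.55 to 0.71. TLR9 opposed both, with a rho of -0.471 with TLR6 (r = -0.481, r without the 2 farthest livers -0.489, FDR = 7e-17, rho -0.427 within series) and of -0.363 with TLR3 (r = -0.388, without the 2 farthest -0.370, FDR = 3.2e-10, rho -0.323 within series), each with a permutation p of 1e-05. These 3 genes were also the closest to the first principal component, with rho of -0.62 for TLR3, -0.77 for TLR6 and 0.61 for TLR9. TLR2 and MYD88 lay farther from it, at -0.12 and 0.37.

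Of the remaining called pairs, TLR5 and TLR6 had a rho of 0.350 and of 0.348 within series, positive in 8 of 9. Negative were TLR6 and MYD88 at -0.296 (-0.320 within series, 6 of 9), TLR5 and TLR9 at -0.292 (-0.246, 9 of 9), TLR3 and MYD88 at -0.248 (-0.383, 7 of 9), and TLR4 and TLR9 at -0.217 (-0.186, 8 of 9). TLR9 and MYD88 had 0.190 (0.172 within series, positive in 5 of 9), with 0.363 in numbers from 2800 on and 0.013 below 2800. The other 3 called pairs lost the call within series. These were TLR4 and TLR6 at 0.246 (0.143 within series, 7 of 9), TLR3 and TLR4 at 0.195 (0.115, 6 of 9), and TLR3 and TLR5 at 0.167 (0.162, with only 3 of 9 series positive, and 0.013 below 2800). Not called besides TLR4 and TLR5 were TLR2 with TLR3 (0.070), TLR2 with TLR6 (-0.042) and TLR2 with TLR9 (-0.145, FDR = 0.033). TLR2 and TLR6 form a receptor dimer, and no rank correlation between their signals was detectable in these livers. TLR1 and TLR10 were outside the tested transcripts, and as a description TLR1 and TLR6 had a rho of 0.554, TLR6 and TLR10 0.396, and TLR1 and TLR2 -0.004.

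**Figure D2:**
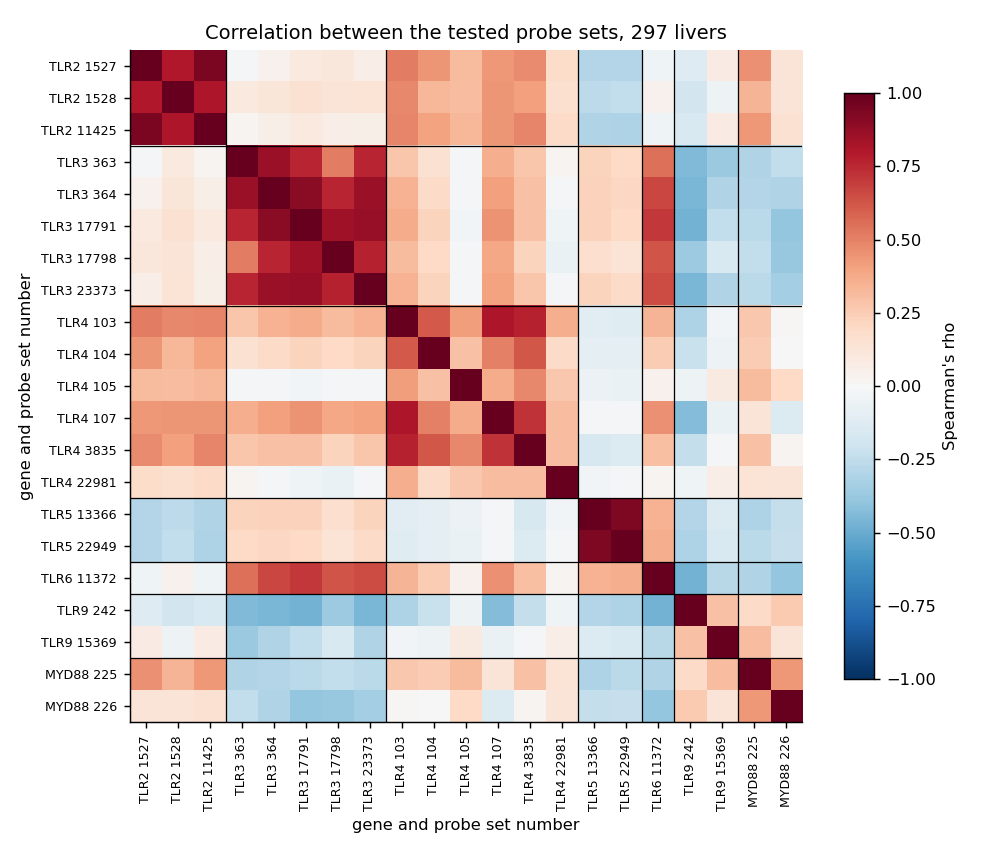
Spearman's rho over all livers between the 21 tested probe sets of 7 genes, red for positive and blue for negative, with black lines between genes. TLR2 and TLR4 probe sets are positive in all 18 combinations (0.16 to 0.51), TLR3 and TLR6 in all 5 (0.55 to 0.71), and TLR2 and TLR5 are negative in all 6 (-0.31 to -0.25).

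**Figure D3:**
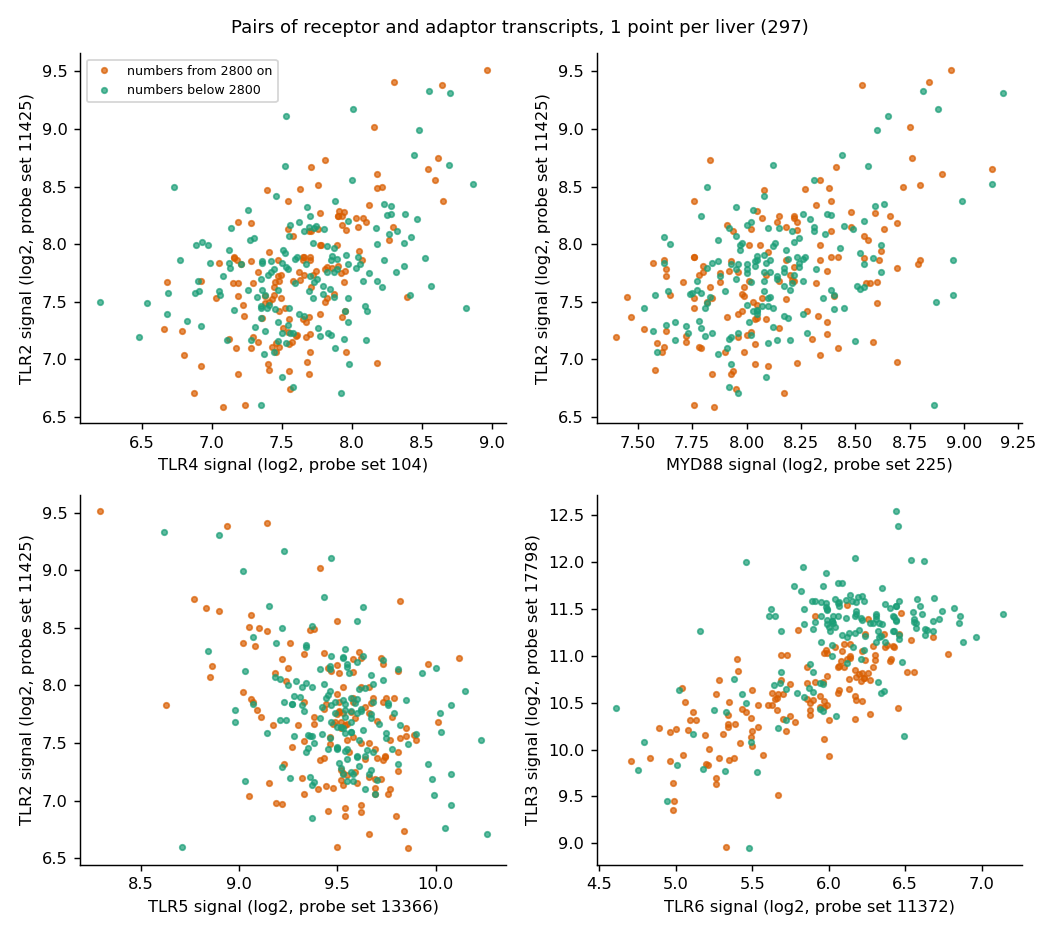
Signals (log2) of 4 pairs of genes, 1 point per liver, orange for numbers from 2800 on and green for numbers below 2800. TLR2 follows TLR4 (rho 0.404) and MYD88 (0.426), opposes TLR5 (-0.302), and TLR3 follows TLR6 (0.629) in both sets of numbers (0.740 from 2800 on, 0.368 below).

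Most of these pairs shared variation with the rest of the transcriptome. After removal of 5 principal components, which together took 47.9% of the variance, 1 of the 21 pairs was called, TLR4 with MYD88 at a rho of 0.286, and after 17 components 0 were called. TLR2 and TLR4 then had a rho of 0.180 and 0.019, and TLR2 and MYD88 of 0.227 and -0.007. The components hold whatever moves many transcripts, and what they stand for was not tested.

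The 3 genes nearest to each member give a picture of its company in the liver. They were picked for the highest rho in these same livers. Their permutation p of 1e-05 takes no account of that choice and is not read as support. TLR2 was nearest to IFNAR2, B4GALT5 and OSMR, with rho of 0.57, 0.57 and 0.55 (0.56, 0.57 and 0.55 within series, and 0.20, 0.21 and 0.11 after 5 components were removed). IFNAR2 is a chain of the type I interferon receptor and OSMR a chain of the oncostatin M receptor. TLR4 was nearest to CD163, the haemoglobin scavenger receptor of macrophages, at 0.57 (0.53 within series, 0.34 after 5 components), then to LOC100522887 at 0.52 and to IFNAR1, the other chain of the interferon receptor, at 0.50. MYD88 was nearest to TSPAN14 at 0.77, CPN2 at 0.76 and TMBIM1 at 0.75, within series these were 0.77, 0.74 and 0.73, and after 5 components 0.40, 0.51 and 0.38. CPN2 is a subunit of carboxypeptidase N, which is made in hepatocytes and secreted.

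TLR5 was nearest to PRC1, a protein of the cytokinetic spindle, with a rho of 0.69 and an r of 0.72. It was 0.67 within series and 0.62 after 5 components were removed, the highest value left after this step among the 21 nearest genes. LOC100519366 at 0.59 and the kinase MAP2K6 at 0.58 followed. TLR3 was nearest to NF1 (0.82), CDKAL1 (0.81) and GOSR1 (0.81), TLR6 to KIAA1468 (0.83), MGA (0.81) and DHX40 (0.81), and TLR9 to LY6E (0.59), SERPINE2 (0.59) and ABHD12 (0.58). After 5 components TLR6 had 0.07, 0.17 and 0.13 with its 3 genes, TLR9 had 0.15, 0.14 and 0.09, and TLR3 had 0.06 with NF1, 0.43 with CDKAL1 and 0.21 with GOSR1.

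Genes of the TLR pathway were taken from lists by role. Counts of positive and negative genes in a list are read against the shares of all transcripts given above for each member. Of the cytokines and other targets of TLR signalling, 9 of 15 listed genes were tested, and 6 were not on the array by symbol or under the filter, among them IL1B and IL6. All 9 were positively correlated with MYD88, with a median rho of 0.39 against 0.06 over all transcripts. TNF had 0.46, CCL3L1 0.45, IL10 0.42 and the neutrophil chemokine CXCL8 0.39. With TLR2, 7 of the 9 were positive and 0 negative, with a median of 0.34 against -0.03, and CXCL8 at 0.52 (0.49 within series) and NFKBIZ, an atypical NF-kB regulator, at 0.40 were the closest. With TLR4, 5 were positive and 0 negative (median 0.19 against -0.08), led by CXCL8 at 0.43 and NFKBIZ at 0.40. TLR5 had the opposite direction, 0 positive and 5 negative (median -0.20 against -0.05), with TNF at -0.29 and IL10 at -0.25. TLR3 had 1 positive and 4 negative, TLR6 0 and 4, and TLR9 3 and 0. After removal of 5 components the medians of the list were 0.23 with MYD88, 0.11 with TLR2, 0.18 with TLR4 and -0.00 with TLR5. CXCL8 and NFKBIZ then had 0.17 and 0.00 with TLR2, and 0.20 and 0.21 with TLR4.

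Co-receptors, which hand ligands to TLRs, and chaperones, which bring TLRs to their place in the cell, gave 5 tested genes of 9, since LY96 and CD36 were under the filter and UNC93B1 and HSP90B1 had no probe set by symbol. MYD88 was positively correlated with all 5, with LBP, the endotoxin binding protein of the acute phase, at 0.58 (0.56 within series) and CD14 at 0.40. TLR2 was correlated with CD180 at 0.39 and LBP at 0.37, and its rho with CD14 was 0.02. TLR4 was correlated with CD180 at 0.39 and LBP at 0.21, and negatively with CD14 at -0.21. CD14 is the co-receptor of TLR4 and TLR2, and neither followed it upward. TLR5 had 4 negative of the 5, TLR6 4 negative and 1 positive, TLR3 3 negative and 1 positive, and TLR9 3 positive and 1 negative. After removal of 5 components MYD88 had 0.35 with LBP and 0.06 with CD14. TLR2 then had 0.24 with CD180 and 0.18 with LBP, and TLR4 had 0.27 and 0.13.

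TLR7 and TLR8, the endosomal receptors for single-stranded RNA, have their genes next to each other on the X chromosome, and both were tested. TLR4 had a rho of 0.41 with TLR7 and of 0.45 with TLR8, TLR2 of 0.29 and 0.34, and MYD88 of 0.23 and 0.39, all of them called. They were called also with TLR3 (0.35 and 0.20, within series 0.28 and 0.09) and TLR6 (0.38 and 0.28, within series 0.33 and 0.24). TLR5 had -0.08 and -0.09, which were not called, and TLR9 -0.16, which was, and -0.11. Of the 7 genes TLR4 had the highest rho with both over all livers. After removal of 5 components MYD88 had the highest, 0.40 and 0.43, and TLR4 had 0.27 and 0.39.

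The adaptors, kinases and ubiquitin ligases, 14 tested of 17 (TIRAP and TRAF6 had no probe set by symbol), split in sign with each member. TLR2 had 4 positive and 2 negative, TLR4 and TLR5 5 and 3 each, MYD88 7 and 5, TLR3 7 and 6, TLR6 6 and 7, and TLR9 6 and 6. IRAK1, a kinase recruited through MYD88, had a rho of 0.52 with TLR9, 0.19 with MYD88 and -0.60 with TLR6. TAB2, an adaptor of the kinase MAP3K7, had 0.70 with TLR6, 0.64 with TLR3 and -0.56 with TLR9. TICAM1, the adaptor of TLR3, had -0.26 with TLR3 (-0.36 within series). Of the 10 tested NF-kB and IRF factors of 12, IKBKB, the kinase that frees NF-kB, had 0.67 with MYD88 (0.68 within series), 0.38 with TLR2 and -0.36 with TLR5. MYD88 had 5 positive and 1 negative in this list, TLR2 4 and 1, TLR4 2 and 3 and TLR5 0 and 5. TLR3 had 3 and 6, TLR6 3 and 7, and TLR9 6 and 3. After removal of 5 components IRAK1 had 0.12 with TLR9, -0.06 with MYD88 and 0.02 with TLR6. TAB2 then had 0.01 with TLR6, 0.41 with TLR3 and -0.01 with TLR9, and TICAM1 had 0.14 with TLR3. IKBKB had 0.19 with MYD88, 0.16 with TLR2 and -0.10 with TLR5.

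Genes that restrain TLR signalling, 9 tested of 10, were mostly lower in livers with higher TLR3 and TLR6. Each of these 2 receptors had 8 negative and 1 positive, with medians of -0.40 against -0.19 for TLR3 and -0.47 against -0.21 for TLR6. Most of all tested transcripts were also negative with each of them, by the shares given above. TNIP1 had -0.69 with TLR3 and -0.53 with TLR6. The exception was CYLD, a deubiquitinase, at 0.41 with TLR3 and 0.58 with TLR6, and CYLD was negative with MYD88 at -0.43. TLR9 had 7 positive and 1 negative, MYD88 6 and 1, TLR2 0 and 2, TLR4 0 and 4, and TLR5 1 and 3. Within series the medians of the list were -0.31 with TLR3 and -0.33 with TLR6. After removal of 5 components they were 0.03 and 0.05. TNIP1 then had 0.04 with TLR3 and 0.07 with TLR6, and CYLD had -0.00 and -0.05.

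**Figure D4:**
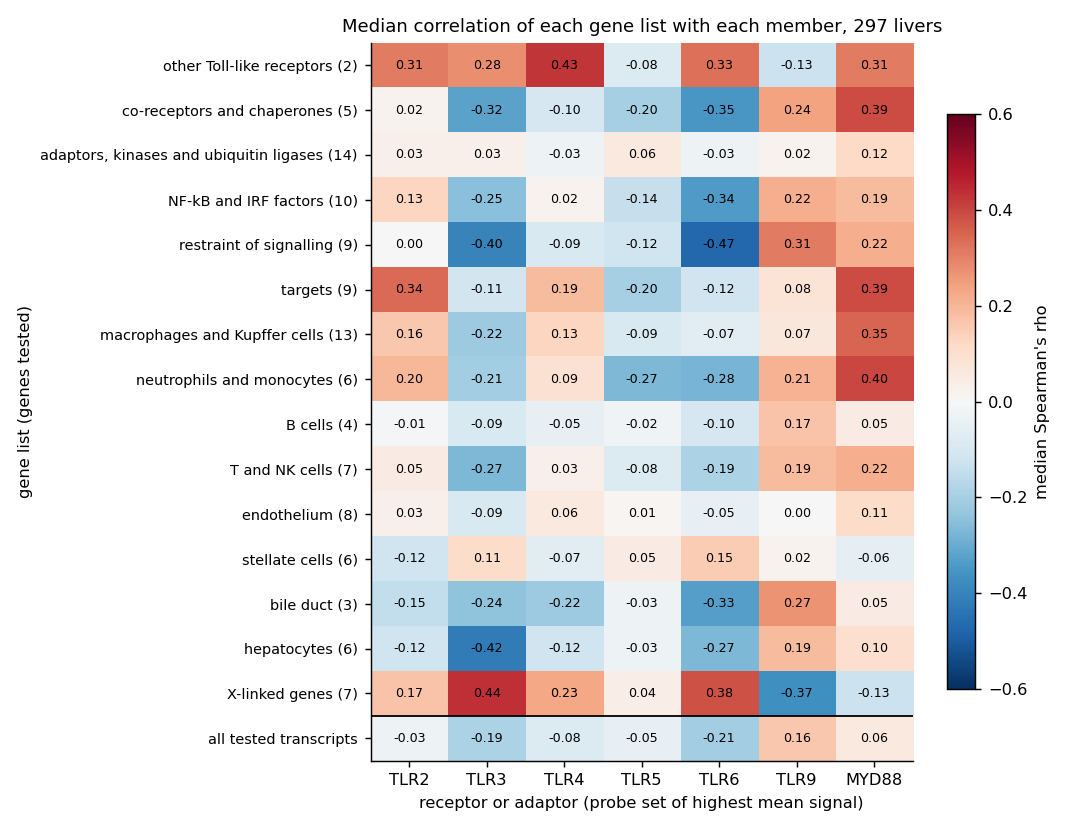
Median Spearman's rho of the tested genes of each list (their number in brackets) with each of 7 genes over all livers, with the median over all tested transcripts in the bottom row. Targets have 0.39 with MYD88 and 0.34 with TLR2, and -0.20 with TLR5; restraint of signalling has -0.47 with TLR6 and -0.40 with TLR3.

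Markers of immune cells moved with several of the members. Of the 13 tested macrophage and Kupffer cell markers, 8 were positive and 0 negative with MYD88 (median 0.35 against 0.06 over all transcripts). TLR2 had 6 and 0 (0.16 against -0.03), TLR4 6 and 1 (0.13 against -0.08), and TLR5 1 and 4 (-0.09 against -0.05). TLR3 had 3 and 7, TLR6 5 and 6, and TLR9 6 and 3. With TLR3 and TLR9 these counts are close to the background. Over all transcripts 23.8% were positive and 54% negative with TLR3, and 51.1% and 27% with TLR9. After removal of 5 components the medians of the list were 0.28 with MYD88, 0.19 with TLR2, 0.26 with TLR4 and -0.12 with TLR5. TLR4 was correlated with CD163 and MSR1 (0.45) and was not called with C1QA (0.06) or FCER1G (0.13). MYD88 was correlated with FCER1G (0.62), C1QC (0.61) and C1QA (0.60), and had 0.07 with CD163. Of 6 neutrophil and monocyte markers tested, 5 were positive with MYD88 (median 0.40), 4 with TLR2 (0.20) and 3 with TLR4 (0.09, 1 negative). With TLR5 5 were negative (-0.27 against -0.05), among them S100A9 at -0.34 and CSF3R at -0.30. TLR3 had 1 positive and 4 negative (-0.21 against -0.19), TLR6 1 and 5 (-0.28 against -0.21), and TLR9 4 and 1 (0.21 against 0.16). After removal of 5 components the medians of this list were 0.12 with MYD88, 0.03 with TLR2, 0.04 with TLR4 and -0.00 with TLR5. S100A9 and CSF3R then had -0.07 and 0.02 with TLR5. With the score of the macrophage markers as a covariate, rho was 0.344 for TLR2 and TLR4, 0.333 for TLR2 and MYD88, -0.267 for TLR2 and TLR5, and 0.101 for TLR4 and MYD88, which was then no longer called (FDR = 0.13). Beyond this covariate, the part of these cells in the correlations was not tested.

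MYD88 also followed the markers of T and NK cells, of which 6 of 7 were positive with it, 2 with TLR2 and 2 with TLR4 (1 negative). Of the 8 endothelial markers 3 were positive with MYD88 (1 negative), 1 with TLR2 and 2 with TLR4. Over all transcripts 32.6% were positive with MYD88, 12.8% with TLR2 and 18.8% with TLR4, so the endothelial counts are close to the background. Of the 4 B cell markers 3 were positive with TLR9, a receptor known from B cells, and MS4A1 was negative at -0.24. The median of the 4 was 0.17 against 0.16 over all transcripts, of which 51.1% were positive with TLR9. The 6 stellate cell markers had 0 called with TLR2, TLR4, TLR5 and MYD88, and of the 3 bile duct markers 1 was negative with TLR2, 2 with TLR4 and 0 with TLR5 and MYD88. All 6 hepatocyte markers were negative with TLR3 over all livers (median -0.42 against -0.19). Within series the median was -0.24, with ALB at 0.22 and TF at 0.10, while the rest stayed negative. After removal of 5 components the median was 0.00, with values from -0.09 for HP to 0.15 for SERPINA1. Of the 7 X-linked genes 4 were positive and 3 negative with TLR3, 4 and 2 with TLR6, 2 and 4 with TLR9, and 4 and 1 with TLR4.

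The last comparison was with body composition. LEA, the cross-section of the loin muscle, was 43.71 ± 5.96 cm2 (SD over the pigs with traits), FA, the fat over it, was 14.08 ± 5.23 cm2, and MFR was 0.33 ± 0.14. In every pig with traits MFR was FA divided by LEA within 0.006, so that a high MFR means more fat per muscle area. Over all transcripts, 0.823% were called with LEA at an FDR of 1%, 0.329% with FA and 0.189% with MFR. Of the 21 member probe sets 0 were called with any trait, by Spearman's rho or by regression with limma. Unadjusted p was under 0.05 for 7 of 21 with LEA, 5 with FA and 7 with MFR, and by limma for 9, 6 and 6, while 21.8%, 11.1% and 8.62% of all transcripts were under it by rank. The smallest |rho| called was 0.230 for LEA, 0.242 for FA and 0.249 for MFR. The family holds 63 correlations, and probe sets of 1 gene are not independent. Pigs were taken as independent, and kinship, sex and carcass weight, which the labels do not give, were not adjusted for.

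Of the 21 probe sets 19 had a positive rho with LEA, with a median of 0.093 against -0.013 over all transcripts. The highest was TLR3 SNOWBALL_017798, with a rho of 0.181 (permutation p = 0.0019, FDR = 0.049), an r of 0.195 (permutation p = 0.00083) and 0.205 without the 2 farthest pigs. By limma its signal was 0.196 ± 0.058 (SE) log2 units higher per 10 cm2 of LEA (FDR = 0.023). Within the number series its rho was 0.059, with 5 series positive and 4 negative. LEA itself differed between series, which held 22.2% of its rank variance. The other probe sets of TLR3 differed in rho with LEA over all pigs. They ran from 0.065 for SNOWBALL_000363 (permutation p = 0.27) to 0.170 for SNOWBALL_017791 (permutation p = 0.0037). TLR6 had 0.153 (permutation p = 0.0096, FDR = 0.10) and 0.023 within series. TLR4 SNOWBALL_000104 had 0.133 over all pigs, -0.070 in numbers from 2800 on, and 0.291 in numbers below 2800, where it was called (FDR = 0.009), as were 3.68% of all transcripts. MYD88 SNOWBALL_000225 had 0.128 (permutation p = 0.029, FDR = 0.18) and 0.150 within series, positive in 8 of 9 series. Its Pearson's r was lower, 0.054 (permutation p = 0.36), and its limma slope was 0.031 ± 0.034 (SE) log2 units per 10 cm2. Its rho was 0.028 in numbers from 2800 on and 0.217 below 2800. The other MYD88 probe set, SNOWBALL_000226, stood at 0.015 over all pigs and at 0.103 within series. A link of MYD88 to LEA was therefore not seen by every measure.

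With FA, 18 of the 21 probe sets had a negative rho, with a median of -0.079 against -0.006 over all transcripts. TLR4 SNOWBALL_000103 had -0.153 (permutation p = 0.0092, FDR = 0.21), an r of -0.162 (permutation p = 0.0057) and -0.173 without the 2 farthest. It was -0.207 within series and negative in 9 of 9 series. TLR2 SNOWBALL_011425 had -0.152 (permutation p = 0.0097, FDR = 0.22), an r of -0.123 (permutation p = 0.035), and -0.189 within series, negative in 8 of 9. TLR5 had the opposite sign, with 0.155 for probe set SNOWBALL_022949 (permutation p = 0.0081, FDR = 0.20), an r of 0.164 (permutation p = 0.0054) and 0.139 for SNOWBALL_013366, and within series SNOWBALL_022949 had 0.138, positive in 7 of 9. Its signal was 0.088 ± 0.031 (SE) log2 units higher per 10 cm2 of FA. In numbers from 2800 on the rho of SNOWBALL_022949 was 0.020, and below 2800 it was 0.289. TLR4 SNOWBALL_000104 had -0.004 with FA, unlike SNOWBALL_000103, so the probe sets of TLR4 do not give 1 answer. TLR3 SNOWBALL_017798 had -0.001 and TLR6 0.005.

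With MFR, 19 of the 21 were negative, with a median of -0.083 against 0.000. TLR4 SNOWBALL_003835 had -0.171 (permutation p = 0.0036, FDR = 0.19), an r of -0.190 (permutation p = 0.0011), and -0.192 within series, negative in 9 of 9. After removal of 17 components its rho was -0.034. The other tested probe sets of TLR4 ran from -0.168 for SNOWBALL_000103 to -0.022 for SNOWBALL_022981. SNOWBALL_000104, with the highest mean, had -0.066 (permutation p = 0.26), so the probe sets of TLR4 differ with MFR too. TLR2 SNOWBALL_011425 had -0.158 (permutation p = 0.0068, FDR = 0.27) and -0.178 within series, negative in 8 of 9. TLR5 SNOWBALL_022949 had 0.115 (permutation p = 0.050, FDR = 0.58). FA and MFR are tied by construction, so these values are not a second line of evidence. Within the series 2, 8 and 8 of the 21 had an unadjusted p under 0.05 with LEA, FA and MFR, while 8.54%, 13.4% and 12.1% of all transcripts were under it. Within the series 0 of the 21 were called, with smallest FDR of 0.38, 0.037 and 0.066, and of all transcripts 0.0201%, 0.574% and 0.522% were called. Among the probe sets under the filter, TLR1 had 0.186 with LEA (permutation p = 0.0016) and TLR2 SNOWBALL_039790 had -0.192 (permutation p = 0.0011), and neither passed over all probe sets (FDR = 0.056 and 0.047).

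**Figure D5:**
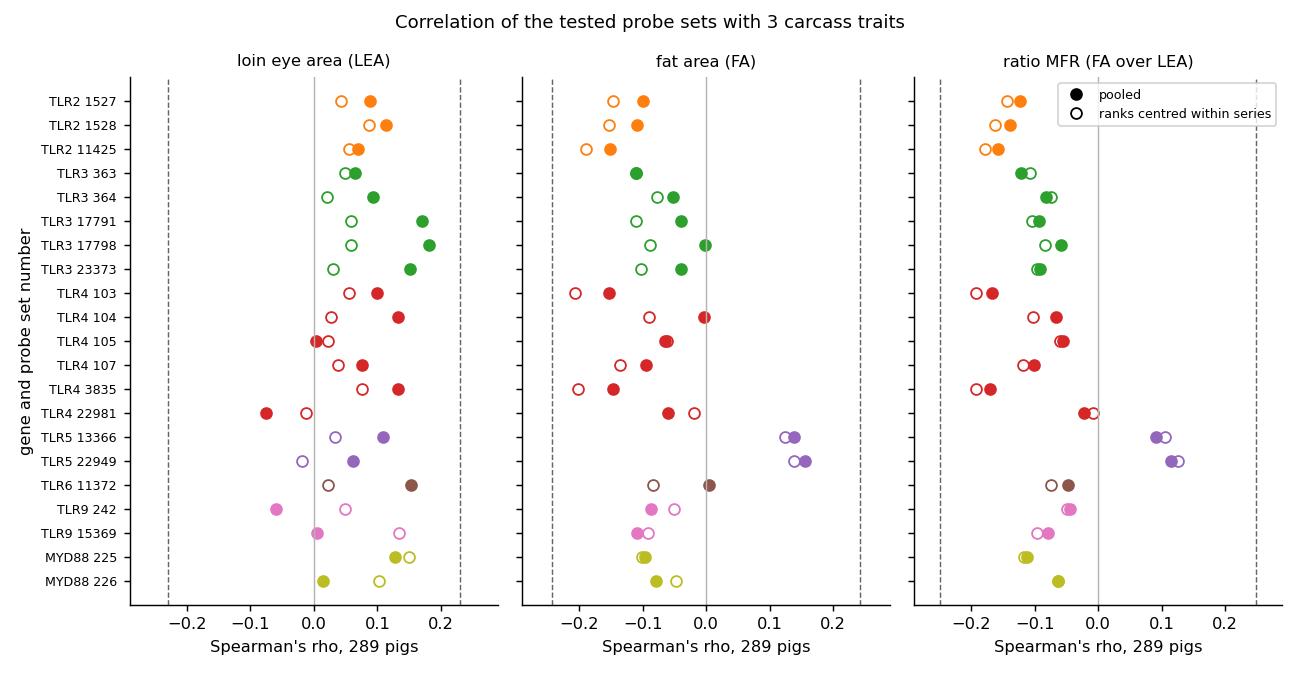
Spearman's rho of the 21 tested probe sets with LEA, FA and MFR over the pigs with traits, as filled points, and from ranks centred within the number series, as open points; dashed lines mark the smallest |rho| called among all transcripts (0.230, 0.242 and 0.249). No point reaches a dashed line, and TLR5 lies to the right with FA where most other probe sets lie to the left.

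With the score of the X-linked genes as a covariate, rho with FA was -0.003 for TLR4 SNOWBALL_000103, -0.060 for TLR2 SNOWBALL_011425 and 0.153 for TLR5 SNOWBALL_022949, and with the macrophage score it was -0.087, -0.110 and 0.133. With the X-linked score, rho with MFR was -0.024 for TLR4 SNOWBALL_003835 and -0.056 for TLR2 SNOWBALL_011425, and rho with LEA was 0.099 for TLR3 SNOWBALL_017798 and 0.072 for TLR6. This covariate moved many transcripts. With the X-linked score 37.2% of all transcripts had an unadjusted p under 0.05 with FA, 28.3% with MFR and 17.2% with LEA. Without it these were 11.1%, 8.62% and 21.8%. Of the X-linked genes 1 was called with LEA, positively, and 2 were called with FA and 2 with MFR, negatively. In the lists of co-receptors, adaptors, NF-kB factors, restraint, targets and the other TLRs 0 genes were called with any trait. TLR7 and TLR8 had a rho of 0.16 and 0.17 with LEA (FDR = 0.089 and 0.070), and LBP had 0.21 (FDR = 0.020).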

How the data were processed

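Liver RNA of 297 pigs was measured on 1 Affymetrix Snowball array per animal. The authors deposited log2 signals made by the robust multichip average in Expression Console, per the study's methods, and GCOS 1.1.1 stands in the submitters' processing notes. RMA sets the arrays to a common distribution, so that a change of all transcripts is not seen. Arrays have no read depth, and their number limits the precision. The study's residuals after genetic similarity, gender and carcass weight were not formed here.

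From 47845 probe sets 123 controls were removed. Tested were the 24909 probe sets highest in their 20th percentile of signal, in place of presence in 80% of samples. Symbols were those of the array annotation. Spearman correlations were adjusted by Benjamini-Hochberg over all tested transcripts and called at an FDR of 1%, with p from 100000 permutations (two-sided) for the values printed. The 8 pigs without traits were left out of trait tests, which leaves 289. For each member the probe set of highest mean signal served for co-expression. Alternatives were regression by limma, Pearson's r, centring of ranks inside each number series, removing 5 or 17 principal components, leaving out the 2 farthest pigs, numbers from 2800 on or below 2800, all probe sets, the 12455 transcripts of highest signal, and scores of X-linked genes or macrophage markers as covariates. Named are all member probe sets, the 3 nearest genes of each member, and genes of lists by role: other TLRs, co-receptors and chaperones, adaptors and kinases, NF-kB and IRF factors, restraint, targets, and markers of macrophages, neutrophils and monocytes, B cells, T and NK cells, endothelium, stellate cells, bile duct, hepatocytes and X-linked genes. Members and lists were chosen with earlier results of these data known. Scripts were tested on simulated data. CD14 stands in 2 lists. The tools were limma 3.58.1 (R 4.3.3) and, in Python 3.11.15, scipy 1.17.1, matplotlib 3.10.9, numpy 2.4.6 and pandas 2.3.3.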

Additional observations from a re-analysis of the deposited data

How the results depend on the processing

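Of 729 alternative values of a member's rho with a trait, 728 stayed on their side of the threshold, and 94 changed sign without being called before or after. The exception was numbers below 2800, where 1 member probe set was called with LEA, TLR4 SNOWBALL_000104 at 0.291. Of the alternative values of a pair of genes 39 lost the call, 2 gained it (TLR4 with TLR5 by Pearson's r, -0.178, and TLR2 with TLR9 with the macrophage score, -0.174), 14 turned, and the others kept their side of the threshold. Among these, TLR2 with TLR3, uncalled throughout, changed sign after 17 components (-0.050) and with the X-linked score (-0.040). Called pairs numbered 17 as reported, 1 after 5 components, 0 after 17 components, 10 in numbers below 2800 and 8 of 10 among the 50% of transcripts with the highest signal, which leave out 2 genes. They numbered 18 by Pearson's r, 14 within series (TLR3 with TLR4, TLR3 with TLR5 and TLR4 with TLR6 were lost), 13 from 2800 on, 16 over all probe sets, 14 with the X-linked score and 16 with the macrophage score. After 5 components the sign turned for TLR3 with TLR5 (-0.014), TLR9 (0.112) and MYD88 (0.122), for TLR5 with TLR6 (-0.018), and for TLR6 with TLR9 (0.072) and MYD88 (0.149). After 17 components it turned for TLR2 with MYD88 (-0.007), for TLR3 with TLR4 (-0.012), TLR6 (-0.113), TLR9 (0.059) and MYD88 (0.016), for TLR5 with MYD88 (0.031), and for TLR6 with TLR9 (0.061) and MYD88 (0.043). The turned values were all uncalled, and the cause was not tested. Signals under the filter limit what can be said of TLR1 and TLR10.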
